A study of Homo sapiens with 4 samples.

Results

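Pre-mRNA splicing factor genes were examined for peaks of SPIB, an ETS-family transcription factor, in H1703, an established cell line from a human squamous cell carcinoma of the lung. Members were the protein-coding RefSeq genes whose symbols begin with SRSF, SRRM, HNRNP, SNRP, PRPF, SF3A, SF3B or U2AF, or with LSM and a digit, without LSM1. This gave 91 of the 20037 protein-coding genes placed on the assembled nuclear chromosomes. The suspended cells overexpressed SPIB and were kept off their substrate for 24 h, per the labels. The attached cells overexpressed SPIB as well, and their treatment label also names the suspension, so the condition label alone separates the groups. Each condition had 1 ChIP library, made with the anti-FLAG M2 antibody, and 1 input library, and no library of cells without SPIB overexpression was analysed here. With 1 library per condition no test between conditions was possible, and gene expression, including markers of the cell type, was not measured in these files.

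Splicing removes introns from pre-mRNA in the spliceosome, which is built from small nuclear ribonucleoproteins (snRNPs) and many added proteins. Sm and Sm-like proteins form rings around the small nuclear RNAs, the SF3a and SF3b complexes hold the U2 snRNP at the branch site, and the U2 auxiliary factor (U2AF) reads the end of the intron. SR proteins and heterogeneous nuclear ribonucleoproteins (hnRNPs) bind the transcript and steer which exons are kept, and many of them regulate their own mRNAs through alternative exons.

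The filtered ChIP libraries held 20766909 tags (suspended) and 21108364 tags (attached), and their inputs 21437074 and 15878452 tags. The authors listed 9024 suspended and 462 attached peaks. A gene was counted when a peak summit, the position of most overlapping tags, lay in its span or within 5 kb. In suspended cells 40 of the 91 splicing factor genes (44%) had such a summit, against 28.6% of all protein-coding genes. Longer genes collect more peaks, and the members were shorter than most genes, with a median span of 15.96 kb against 24.11 kb. Other protein-coding genes of like span, taken in 20 bins and weighted as the members are, had a summit in 25.8%, which for 91 genes would be 23.5. In attached cells 3 members (3.3%) had a summit, namely SRRM3, HNRNPA0 and HNRNPUL1, against 1.86% of all protein-coding genes and 1.39% of those of like span. All 3 were called in suspended cells too. A summit in both lists was found for 1.36% of all protein-coding genes. The other 51 members had no peak in either list.

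The members' share was also above that of like-span genes at gene ends. A suspended summit lay within 1 kb of an end of 28 members (30.8%), where all protein-coding genes had one in 13.8% and genes of like span in 14.2%. For 80 members a RefSeq promoter table gives the strand and 1 or more starts. Of these, 28 (35%) had a suspended summit within 1 kb of a listed start, against 14.7% of all protein-coding genes with a listed start. A summit near the far end of the gene, and not also near a listed start, was found for 2 of the 80, SF3B4 and SRRM2 (2.5%), against 1.6%. In attached cells the 3 summits all lay within 1 kb of a gene end (3.3% of members, against 0.809%), and that end was a listed start (3.75% of the 80, against 0.77%). In suspended cells 10 members had 2 or more summits (11%), against 8.32% of all protein-coding genes and 6.71% of those of like span.

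**Figure D1:**
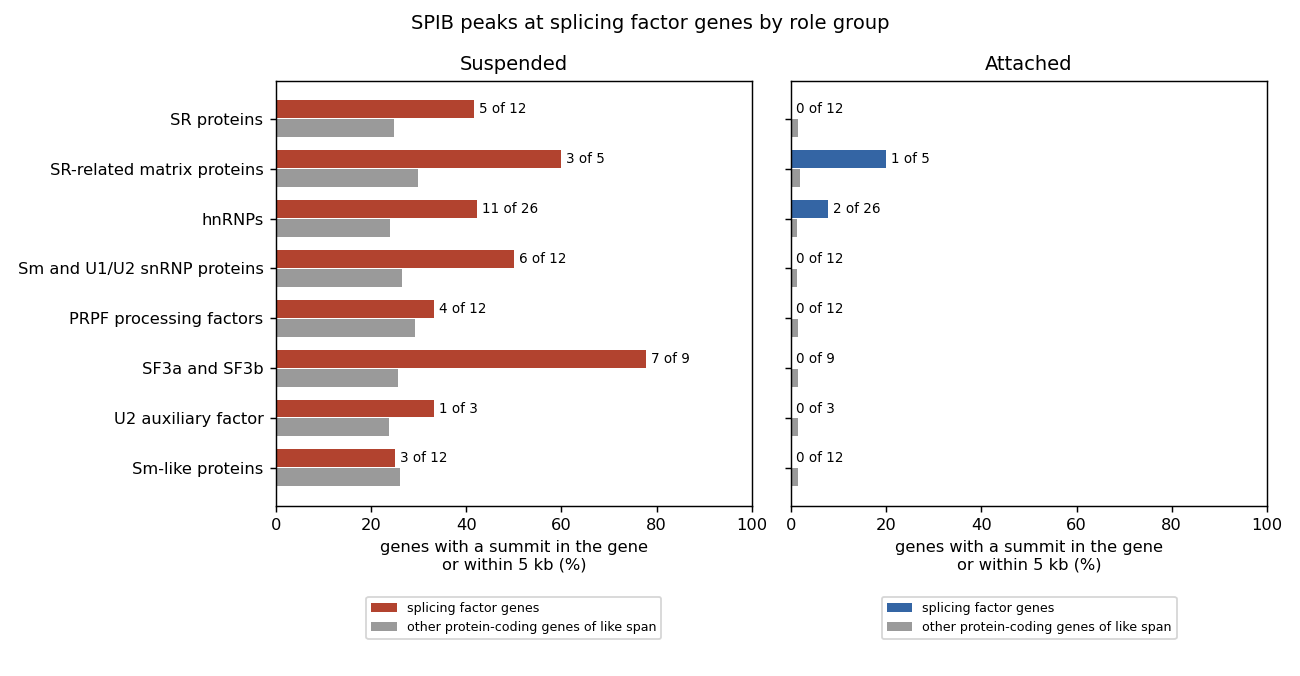
Share of splicing factor genes with a peak summit in the gene or within 5 kb (percent, horizontal axis) in each role group, in suspended (left) and attached cells (right). Coloured bars are the members, with counts printed, and grey bars are other protein-coding genes of like span. The SF3a and SF3b group reached 77.8% in suspended cells against 25.6% for like span, whereas the Sm-like group, at 25%, was close to its 26%.

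The groups, set by gene symbol alone and not by a shown role in splicing, differed in how many members were listed. SF3a and SF3b genes had a suspended summit in 7 of 9 members, where genes of like span would give 2.3. Sm and U1 or U2 snRNP protein genes had one in 6 of 12 (3.17 by span), SR-related matrix protein genes in 3 of 5 (1.49), hnRNP genes in 11 of 26 (6.23) and SR protein genes in 5 of 12 (2.97). PRPF genes, with 4 of 12 (3.5), U2AF genes, with 1 of 3 (0.715), and Sm-like genes, with 3 of 12 (3.12), lay near the share of their span. These counts are small, and no difference between groups was tested.

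The 3 members called in both lists are described first. SRRM3 encodes a factor that promotes the inclusion of microexons in neurons. It spans chr7:76201896-76287287 on hg38. The suspended peak at its start held 40 tags (95% Poisson interval 28.6 to 54.5) with an authors' fold over local background of 29.02, the highest of any member and rank 11 of the 9024 suspended peaks. The attached peak there held 23 tags (14.6 to 34.5) at a fold of 14.37. Its summit was the annotated start base itself, and the suspended summit lay 15 bp before it. SRRM3 had 3 further suspended peaks, 23675 bp inside the gene (19 tags, fold 6.65), 5109 bp before its far end (15 tags, 9.36) and 4253 bp beyond that end (23 tags, 5.21).

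HNRNPUL1 encodes an hnRNP U-like protein known for roles in RNA processing and in the response to DNA breaks. The suspended peak at its start held 27 tags (17.8 to 39.3) at a fold of 11.7, and the attached peak held 19 tags (11.4 to 29.7) at a fold of 11.94. The summits lay 31 and 33 bp before the start, 2 bp apart. They also lay 760 and 758 bp from an end of AXL, a receptor tyrosine kinase gene, so either gene could be the one these peaks belong to. Further suspended peaks were called 2858 bp before the HNRNPUL1 span (12 tags, fold 10.82) and 3406 bp inside it (21 tags, 5.17). The first of these lay nearer to an end of AXL, at 2067 bp.

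HNRNPA0 encodes an hnRNP of the A/B type. Its suspended peak held 59 tags (44.9 to 76.1) in 845 bp at a fold of 6.41, and its attached peak 25 tags (16.2 to 36.9) in 398 bp at a fold of 9.4. The summits lay 127 and 312 bp before the start. The nearest end of another annotated gene, KLHL3, was 18401 and 18586 bp away.

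Tags divided by the filtered tags of their library gave a suspended to attached ratio of 2.40 at HNRNPA0 (exact 95% interval 1.479 to 3.997), 1.77 at SRRM3 (1.03 to 3.09) and 1.44 at HNRNPUL1 (0.774 to 2.75). The interval at HNRNPUL1 includes equal tags, and all intervals cover counting error alone. The suspended peak was called wider at each site, and per bp of peak the ratios were 1.13, 1.19 and 0.962. Over all 212 overlapping pairs of peaks in these libraries the median ratio was 1.36, with quartiles of 1.08 and 1.75, and 1.10 per bp. In a bulk ChIP, more cells with a bound site and more binding per cell cannot be told apart. The authors' false discovery rate (FDR) for the 3 attached peaks was 41.6%, 79.1% and 100%, in the order SRRM3, HNRNPA0, HNRNPUL1, against at most 0.27% for the suspended peaks at the same starts.

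**Figure D2:**
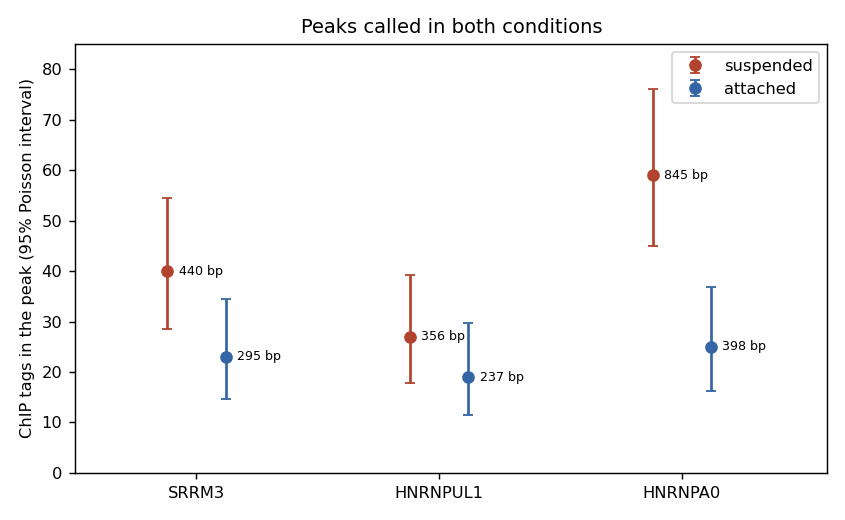
ChIP tags (vertical axis, from 0) in the peaks at the starts of SRRM3, HNRNPUL1 and HNRNPA0 in suspended (red, left of each pair) and attached cells (blue), with 95% Poisson intervals and the called width beside each point. The intervals of the pair overlap at SRRM3 and HNRNPUL1 and do not at HNRNPA0, where the suspended peak was called 845 bp wide and the attached one 398 bp.

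The 9 members with SF3A or SF3B symbols encode parts of the U2 snRNP, and 7 of them had a suspended summit at a gene end. Genes of like span would give 1.28. These were the same 7 members that had a summit in the gene or within 5 kb. In suspended cells SF3A3 had the second highest fold among the members, 22.06 with 31 tags (21.1 to 44.0), 535 bp inside the gene. SF3A2 had 14 tags (7.7 to 23.5) at a fold of 12.23, 44 bp after its start and 539 bp from an end of PLEKHJ1. SF3B3 had 30 tags (20.2 to 42.8) at 11.34, 248 bp inside its span and 510 bp from an end of COG4. SF3A3, SF3A2 and SF3A1 together make up SF3a, and SF3A1 had 25 tags at a fold of 8.9, 436 bp before its start and 706 bp from an end of CCDC157. SF3B4, which encodes a small RNA-binding subunit, had 3 peaks, at the start (42 tags, fold 4.52), 498 bp before it (24 tags, 6.7) and 355 bp from the far end (21 tags, 6.17). The start peak lay 917 bp from an end of MTMR11, and the peak before the start lay nearer to that end than to SF3B4, at 350 bp. SF3B5, a single short gene of 0.69 kb, had peaks 123 bp before the start (25 tags, 5.21) and 477 bp after it (20 tags, 4.31). SF3B6, which contacts the branch site, had 44 tags at a fold of 5.73, 238 bp before its start and 269 bp from an end of FAM228B. No peak of either list was called at SF3B1, the subunit often mutated in cancers, or at SF3B2. PHF5A, an SF3b gene without an SF3 symbol, is counted with the branch site genes below and had no peak either.

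Among the Sm and U1 or U2 snRNP genes, peaks at a gene end were listed for subunits of the Sm ring. SNRPB had 23 tags (14.6 to 34.5) at a fold of 7.8, 50 bp after its start. SNRPD1 had 43 tags (31.1 to 57.9) at 7.86, 377 bp inside an end of its span (its strand is not in the promoter table), and SNRPD2 had 29 tags (19.4 to 41.6) at 6.04, 52 bp after the nearest of its listed starts. A further SNRPD2 peak (16 tags, fold 7.73) lay 3367 bp before a listed start and nearer to an end of QPCTL, at 3017 bp. The same end of QPCTL lay 765 bp from the first SNRPD2 peak. SNRPB2, which encodes a U2 snRNP protein, had 30 tags at a fold of 6.3, 47 bp after its start. The other peaks of the group lay inside the gene, in SNRPA1, a partner of SNRPB2 in the U2 snRNP (11 tags, fold 14.67), and in SNRPA, a U1 snRNP protein gene (15 tags, 11.02). SNRPC, SNRPD3, SNRPE, SNRPF, SNRPG and SNRPN had no peak.

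The 3 member peaks with most tags lay in hnRNP genes. HNRNPH3 had 116 tags (95.9 to 139.1) in a peak of 1702 bp at a fold of 7.71, with the summit 877 bp inside the gene and 358 bp from an end of PBLD. HNRNPF had 87 tags (69.7 to 107.3) in 1242 bp at a fold of 6.3, 1373 bp inside the gene, and 2 peaks of 29 and 27 tags (folds 6.14 and 5.81) 639 and 307 bp after another of its listed starts. HNRNPH1 (42 tags, fold 5.19) had its summit 15 bp before a listed start, and HNRNPH2 (35 tags, 6.6) 233 bp after its start and 530 bp from an end of GLA. These 4 genes encode the hnRNP F/H proteins, which bind runs of G, and were grouped after their values were seen. HNRNPA2B1, which encodes an abundant hnRNP that binds nascent transcripts, had 78 tags (61.7 to 97.3) at a fold of 10.92, 301 bp after its start. An end of CBX3 lies 998 bp from that summit. HNRNPAB had 60 tags (45.8 to 77.2) at a fold of 10.07, 11 bp before its start.

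The remaining hnRNP genes had smaller peaks. HNRNPU, whose protein binds both RNA and chromatin, had peaks of 21 tags (fold 5.46) and 12 tags (7.56), 1434 and 411 bp inside the gene and 1373 and 350 bp from an end of LOC124904588. HNRNPK, which binds runs of C, had 15 tags at a fold of 6.32, 179 bp before the gene and 435 bp from an end of RMI1. HNRNPLL, a regulator of CD45 splicing in lymphocytes, had 10 tags at a fold of 8.85 and an FDR of 5.57%, 11342 bp inside the gene. No peak was listed at HNRNPA1, HNRNPA1L2, HNRNPA1L3, HNRNPA3, HNRNPC, HNRNPCL1, HNRNPCL2, HNRNPCL3, HNRNPCL4, HNRNPD, HNRNPDL, HNRNPL, HNRNPM, HNRNPR or HNRNPUL2. The HNRNPCL and HNRNPA1L genes are near copies of other genes, where reads may not be placed uniquely.

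SR protein genes with a peak were SRSF1, SRSF4, SRSF7, SRSF8 and SRSF9, each with a suspended summit within 1 kb of a start. SRSF7 had the most tags, 62 (47.5 to 79.5) in 971 bp at a fold of 6.55, 446 bp after the nearest of its listed starts. SRSF1, the best known SR protein and an oncogene in several tumour types, had 40 tags (28.6 to 54.5) at a fold of 8.19, 395 bp after its start. Beyond its other end it had peaks of 37 tags (fold 5.95) and 17 tags (7.76), 1178 and 1532 bp away and nearer to an end of the lncRNA LOC101929185. SRSF8 had 11 tags (5.5 to 19.7) at a fold of 11.47 and SRSF9 14 tags (7.7 to 23.5) at 10.92, and SRSF9 has an end of DYNLL1 106 bp from its summit. SRSF4 had 23 tags at a fold of 6.14, 64 bp after its start. SRSF2, SRSF3, SRSF5, SRSF6, SRSF10, SRSF11 and SRSF12 had none.

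The other SR-related genes with a peak differed in position. SRRM4, like SRRM3 a driver of neural microexons, had 14 tags (7.7 to 23.5) at a fold of 18.43, 79853 bp inside the gene and away from its start. SRRM2, a scaffold of nuclear speckles, had 18 tags (10.7 to 28.4) at a fold of 8.19, 677 bp from its far end and 679 bp from an end of ELOB. SRRM1 and SRRM5 had none.

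PRPF, U2AF and LSM genes had few peaks. PRPF40B, which joins the U1 snRNP, had 27 tags (17.8 to 39.3) at a fold of 5.85, 39 bp after a listed start. An end of FAM186B lies 842 bp from that summit. PRPF3, a protein of the U4/U6 snRNP, had 44 tags (32 to 59.1) at a fold of 4.37, 135 bp inside its span, and 19 tags (4.75) 3992 bp beyond it. PRPF18, which acts in the second step of splicing, had 11 tags (5.5 to 19.7) at a fold of 10.35, 15902 bp inside. U2AF2, the large U2AF subunit, had 23 tags (14.6 to 34.5) at a fold of 9.94 and 13 tags (6.9 to 22.2) at 7.65, 4969 and 1300 bp after its start. Of the ring around the U6 RNA, LSM5 had 35 tags (24.4 to 48.7) at a fold of 7.08, 13 bp before a listed start inside its span, and LSM4 had 13 tags (6.9 to 22.2) at 9.32 inside the gene. LSM12, a more distant Sm-like gene, had 45 tags (32.8 to 60.2) at a fold of 7.28, 681 bp after a listed start. No peak was listed at PRPF4, PRPF6, PRPF8, PRPF19, PRPF31, PRPF38A, PRPF38B or PRPF39, at U2AF1 or U2AF1L4, or at LSM2, LSM3, LSM6, LSM7, LSM8, LSM10, LSM11, LSM14A or LSM14B. U2AF1 has a near copy in some GRCh38 sequence sets, so reads there may not be placed uniquely.

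**Figure D3:**
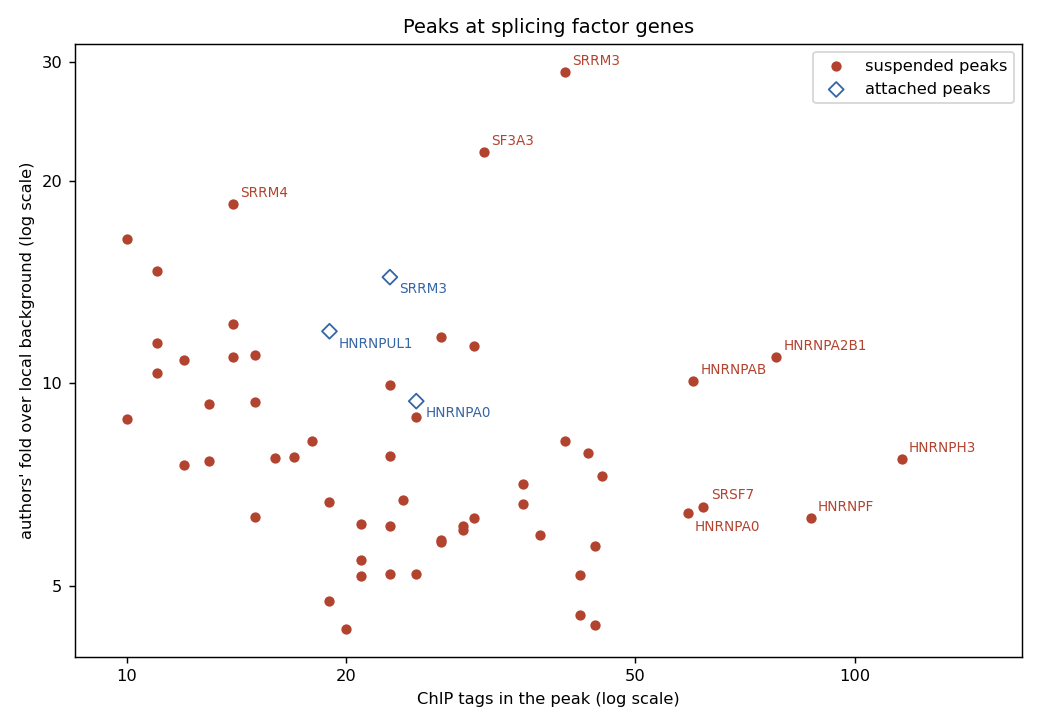
ChIP tags in the peak (horizontal, log scale) and the authors' fold over local background (vertical, log scale) for the 56 suspended (red circles) and 3 attached peaks (blue diamonds) at splicing factor genes. SRRM3 had the highest fold, 29.02, and HNRNPH3 the most tags, 116, and fold is comparable within a list only.

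Together the members held 56 suspended peaks. Of these, 31 lay within 1 kb of an end of the member, 19 further inside and 6 outside, between 1 and 5 kb away. Their median was 23.5 tags, a fold of 7.6 and a width of 360.5 bp, against 15 tags, 9.1 and 252 bp over all suspended peaks. Their median score was 72.03, against 59.12 over all suspended peaks. The authors' FDR was at most 5% for 49 of the 56, with a median of 1.745%, against 3.65% over all suspended peaks. The rest, at 5.3% to 6.33%, were the only peak of HNRNPLL and peaks of HNRNPU, SRRM3, HNRNPUL1 and U2AF2. Each of those 4 genes also had a suspended peak with an FDR of at most 5%. Set beside all 2638 peaks near protein-coding gene ends, the differences in tags and width were smaller. The 31 end peaks had a median of 29 tags in 408 bp, and the 2638 peaks 23 tags in 369 bp. In score the difference was not smaller, with 78.2 against 64.8, and the median fold was 7.56 against 7.265. The score is minus 10 times log10 of the peak caller's p-value. An end of another annotated gene also lay within 1 kb for 16 of the 31. Of all 56 peaks, those inside a member included, 11 lay nearer to an end of another gene than to an end of the member. Members with a suspended peak had a median of 9 suspended peaks within 500 kb of their centre and members without one 4. For other protein-coding genes with and without a peak the medians were 7 and 3. This count includes a gene's own peaks, which raises it for genes with a peak, so local density apart from them was not measured. Outside the most crowded windows by the same count, 33 of 83 members (39.8%) had a summit, where genes of like span had 21.9%. That selection therefore depends in part on the peaks being counted.

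The 28 members with a suspended summit within 1 kb of a listed start had 32 such summits, of which 13 (40.6%) lay within 100 bp of the start. For the 2297 other protein-coding genes with such a summit this was 22.1% of 2561. The median position was 48.5 bp after the start for members and 38 bp after it for the others, and 62.5% and 54.4% lay downstream.

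**Figure D4:**
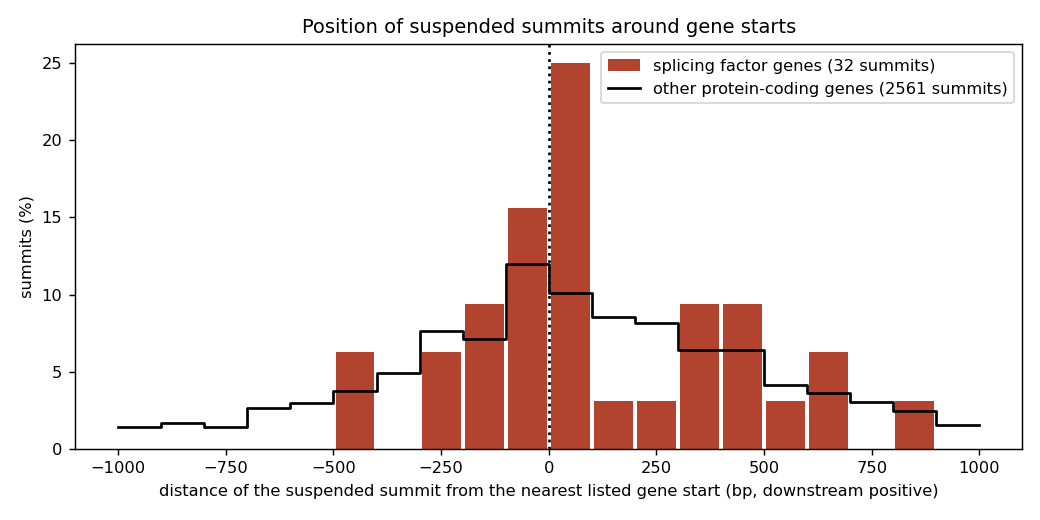
Distance of suspended summits from the nearest listed start (horizontal axis, bp, downstream positive, bins of 100 bp) as percent of summits, for splicing factor genes (red bars, 32 summits) and other protein-coding genes (black line, 2561 summits). Within 100 bp of the start lay 40.6% of the members' summits and 22.1% of the others.

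The bases at these starts were read because 28 members had a suspended summit within 1 kb of one. RefSeq promoter windows (GRCh38.p14, 250 bases before to 50 after a start) were searched on both strands for GAGGAAGT, a PU-box form of the kind SPIB and its relative SPI1 are known to prefer, and for CCGGAAGT, the common ETS-family form. These motifs cannot match the same bases, but each contains GGAAGT. The first 3 lines below carry GAGGAAGT and the next 6 CCGGAAGT, in capitals, or its reverse complement where the match is on the other strand. The lines for SRRM3 and HNRNPA0 are given because their starts were called in both lists. SRRM3 has neither motif, and its capitals mark the reverse complement of GGACAGC, a part of the element known to bind the repressor REST. HNRNPA0 has none of these. Each line runs 5′ to 3′ on the strand of the gene, from 80 bases before the start to the first 20 transcribed bases.
HNRNPUL1, chr19:41262477-41262576, plus strand: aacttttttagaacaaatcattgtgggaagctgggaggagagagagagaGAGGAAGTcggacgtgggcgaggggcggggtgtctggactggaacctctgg
HNRNPF, chr10:43397258-43397357, minus strand: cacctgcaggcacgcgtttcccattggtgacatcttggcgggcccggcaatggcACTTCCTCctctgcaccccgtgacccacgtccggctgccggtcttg
SNRPD2, chr19:45691934-45692033, minus strand: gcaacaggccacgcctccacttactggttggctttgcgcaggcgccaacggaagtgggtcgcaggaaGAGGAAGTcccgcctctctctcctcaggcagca
SF3A2, chr19:2236744-2236843, plus strand: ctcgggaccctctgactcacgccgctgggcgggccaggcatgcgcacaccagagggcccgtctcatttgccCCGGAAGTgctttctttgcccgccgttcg
SNRPB, chr20:2470770-2470869, minus strand: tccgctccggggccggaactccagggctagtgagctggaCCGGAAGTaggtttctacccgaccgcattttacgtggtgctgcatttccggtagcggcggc
SF3B4, chr1:149927784-149927883, minus strand: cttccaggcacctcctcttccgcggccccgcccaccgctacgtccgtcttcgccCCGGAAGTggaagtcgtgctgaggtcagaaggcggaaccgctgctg
SF3A1, chr22:30356875-30356974, minus strand: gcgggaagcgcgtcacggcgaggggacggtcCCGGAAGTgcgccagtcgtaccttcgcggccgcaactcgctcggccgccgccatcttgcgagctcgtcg
SF3A3, chr1:37990003-37990102, minus strand: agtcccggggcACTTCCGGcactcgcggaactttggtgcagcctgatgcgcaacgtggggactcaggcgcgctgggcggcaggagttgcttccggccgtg
LSM5, chr7:32490361-32490460, minus strand: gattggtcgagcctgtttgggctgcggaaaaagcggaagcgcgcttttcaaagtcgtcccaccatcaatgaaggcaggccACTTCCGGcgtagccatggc
SRRM3, chr7:76201816-76201915, plus strand: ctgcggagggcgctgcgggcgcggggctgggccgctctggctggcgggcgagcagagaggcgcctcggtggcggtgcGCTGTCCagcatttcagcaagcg
HNRNPA0, chr5:137754344-137754443, minus strand: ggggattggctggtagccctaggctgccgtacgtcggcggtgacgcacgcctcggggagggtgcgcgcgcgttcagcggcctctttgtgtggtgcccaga

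At HNRNPUL1 the suspended summit fell on the first base of GAGGAAGT, 3.5 bp from the centre of the motif, which runs from 31 to 24 bases before the start. The attached summit lay 2 bp further upstream. In SNRPD2 the same letters lie 13 to 6 bases before the listed start shown, inside the suspended peak and 61.5 bp from its summit. In HNRNPF they lie outside the peaks.

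The ETS form lay within a suspended peak in LSM5 (16.5 bp from the summit), SF3A2 (49.5 bp), SF3B6 (82.5 bp), SNRPB (87.5 bp) and SF3B4 (91.5 bp). In SF3A1, SF3A3 and SRSF4 it was in the promoter window but outside the called peak.

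Across genes, CCGGAAGT was in a window of 8 of the 28 members with a suspended summit near a start (28.6%) and of 7 of the 52 without (13.5%). Of other protein-coding genes it was in 10.5% of 2297 with such a summit and 6.3% of 13466 without. GAGGAAGT was in 3 of 28 (10.7%) and 1 of 52 (1.92%) members, and in 5.18% and 3.18% of the other genes. Genes with a summit had more windows each, a mean of 1.54 against 1.23 for members and 1.56 against 1.37 for others, and more windows give more places for a match. Of all 22199 windows of protein-coding genes, 5.34% hold CCGGAAGT and 2.64% GAGGAAGT.

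GGAA was in 27 of 28 (96.4%) and 50 of 52 members (96.2%) with and without a summit, GAGGAA in 39.3% and 34.6%, and GGAAGT in 53.6% and 42.3%. Other protein-coding genes with and without a summit had GGAA in 97.6% and 96.1%, GAGGAA in 39.7% and 32.6%, and GGAAGT in 38.5% and 28.2%. The 2 parts of the REST element were searched as well: GGACAGC was in 2 of 28 (7.14%) and 5 of 52 members (9.62%), and in 10.3% and 8.47% of the other genes. TTCAGCACC was in 0 of 28 and 1 of 52 members (1.92%), and in 0.871% and 0.401% of the other genes. Counted per window and not per gene, over all windows, GGAA was in 95.1%, GAGGAA in 27.9%, GGAAGT in 23.9%, GGACAGC in 6.64% and TTCAGCACC in 0.351%.

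**Figure D5:**
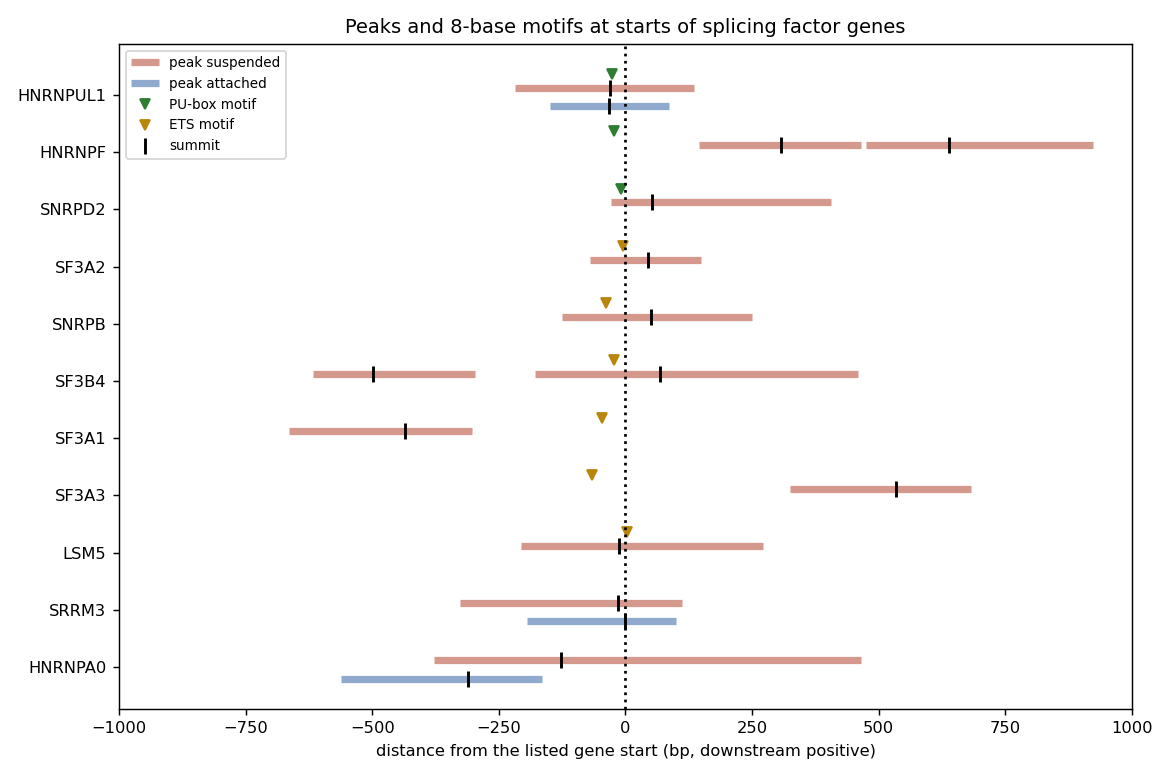
Called peaks (suspended red, attached blue) with summits (black ticks) at 11 starts of splicing factor genes, by distance from the start (bp, downstream positive), with the 8-base PU-box (green) and ETS motifs (yellow). At HNRNPUL1 the suspended summit lies on the motif, 31 bp before the start, and the attached summit just upstream of the motif, 33 bp before the start. At SF3A1, SF3A3 and HNRNPF the motif lies outside the peaks.

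Other genes of the splicing pathway were counted in 5 lists outside the symbols above, 136 genes in all. In suspended cells 47 of them (34.6%) had a summit in the gene or within 5 kb, where genes of like span had 30.9%, and 32 (23.5%) had one at a gene end, where genes of like span had 14.6%. The snRNP and branch site genes stood lowest, with 4 of 25 (16%, like span 28.1%), namely EFTUD2, SF1, PUF60 and ZCRB1. EFTUD2, a GTPase of the U5 snRNP, had the most tags of these, 68 at a fold of 11.66. Catalytic-stage factors had 7 of 27 (25.9%, like span 29.5%) and snRNP assembly genes 5 of 17 (29.4%, like span 27.5%).

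Genes of SR-like proteins and SR kinases had a summit in 8 of 20 (40%, like span 29.8%), and all 8 had one at a gene end (40%, like span 15%). They were TRA2B, SON, ACIN1, RBM39, SCAF1, SCAF4, SCAF8 and SRPK1. Regulators of alternative splicing had 23 of 47 (48.9%, like span 34.8%), and 11 of 47 at a gene end (23.4%, like span 13.7%). At gene ends the catalytic-stage factors had 6 (22.2%, like span 15.1%), the snRNP assembly genes 4 (23.5%, like span 15.3%) and the snRNP and branch site genes 3 (12%, like span 15.5%). In attached cells 4 of the 136 genes (2.94%, like span 1.91%) had a summit, all regulators of alternative splicing and none at a gene end: CELF4, RBFOX3, CELF5 and MSI2. CELF4, an RNA-binding protein gene active mainly in neurons, had 47 tags (fold 18.73) in its suspended peak of highest fold. The overlapping attached peak had 39 tags (21.22), and the 2 summits lay 27407 and 27398 bp inside the gene. Further suspended CELF4 peaks had folds of 9.11, 8.26 and 8.19, the last of them 859 bp from a gene end. RBFOX3, a neuronal splicing regulator gene, had 27 tags (fold 8.07) in a suspended peak and 30 tags (9.73) in the attached peak that overlaps it. The authors' FDR was 4.35% for the attached peak of CELF4 and 100% for those of RBFOX3, CELF5 and MSI2. CELF5 had no suspended peak, and the suspended peak of MSI2 did not overlap its attached peak.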

How the data were processed

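Peaks of SPIB ChIP libraries from suspended and attached H1703 cells were taken from the authors' 2 lists, grouped by the condition label. Per the file headers, the authors ran MACS 1.4.2 on each ChIP library against its own input, with a p cutoff of 1e-05 and 1 tag kept per position. The submitters' processing notes name hg38 as the build. An aligner was not given in the sources used here. The deposited tag counts are raw ChIP tags per peak. The authors' fold is a ratio of ChIP tags to local background, the deposited FDR is a percent, and the authors' score is the p-value as −10 log10, in a column whose name was lost. These 3 were compared within a list alone. Modelled fragments of 63 bp (suspended) and 58 bp (attached) were near the tag size of 50 bp, which can affect summits and widths.

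Gene spans and promoter windows came from RefSeq (GRCh38.p14) tables without exons, and 11 members had no listed start. The summit was start + summit − 1. Members were set beside all protein-coding genes and beside non-members in 20 bins of span. Overlap by 1 bp made a peak shared. Intervals are exact Poisson or, for ratios, exact binomial. Full values were given for members in both lists, members with 2 or more summits and the 3 of highest fold per role group, except for 1 gene that is not reported here. Counting was tested on simulated peaks. Members and lists were chosen with earlier results of these data known. Python 3.11.15, numpy 2.4.6, pandas 2.3.3, SciPy 1.17.1 and matplotlib 3.10.9 were used.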

Additional observations from a re-analysis of the deposited data

How the results depend on the processing

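For the suspended counts of 40 members with a summit in the gene or within 5 kb and 28 at a gene end, the planned changes of flank, distance, score, FDR, overlap, member rule and crowding kept each count within 1.5 times its value and above the share of genes of like span. With the suspended list cut to its 462 peaks of highest score, 10 members (11%) had a summit and 9 (9.89%) had one at a gene end, where genes of like span had 2.39% and 1.42%. The attached count was 3 in the gene or within 5 kb and 3 at a gene end. Both were 0 at an FDR of at most 5%, where only 0.105% and 0.0399% of all protein-coding genes had such a summit. Without a flank the first count was 1, since the attached summits of HNRNPA0 and HNRNPUL1 lie just before the gene. That was 1.1% of members, near the 1.12% of all protein-coding genes, and genes of like span had 0.701%. The median ratio of tags at the 3 starts called in both lists, 1.77, was 2.08 without HNRNPUL1, whose attached FDR is 100%, and 1.13 per bp of peak. No paired analysis was possible because each condition had 1 ChIP library. The attached list is short at this depth and cutoff, so a start absent from it is not shown to be unbound.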
